A study of Mus musculus with 2 samples.

Results

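Voltage-gated calcium and sodium channel genes were examined in a map of PARIS-FLAG on hippocampal chromatin. PARIS, the product of Zfp746, is a zinc-finger protein known to repress transcription, and FLAG is the peptide tag through which the antibody recognized it. The genes were the 40 mouse members of the Cacna1, Cacna2d, Cacnb1 to Cacnb4, Cacng1 to Cacng8 and Scn families (the Scn genes ending in a or b). They were chosen by symbol, and every peak that the authors' annotation assigned to one of these symbols was taken. This gave 615 of 99782 annotated peaks. At least 1 peak was assigned to 39 of the 40 genes, against 72.5% of all 21938 protein-coding genes. For genes of 50 kb or longer the counts were 27 of 27 channel genes and 4657 of 5007 genes in all. The channel gene without an assigned peak was Cacna1f, the calcium channel pore of retinal photoreceptors. It is the only one of the 40 genes on the X chromosome. A single peak lay over its gene body, and that peak was assigned to Syp.

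CUT&Tag places a transposase at the antibody's target, so sequenced fragments pile up where the target sits. Both libraries of the series, 1 anti-FLAG and 1 anti-IgG, came from untreated hippocampus of C57BL/6J mice of genotype CamK-PARIS. The labels do not describe the transgene, the cells that carry it or the number and age of the animals. No library without the transgene was analysed here, and with 1 library per antibody no value has a replicate error and no difference could be tested.

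Voltage-gated calcium channels open on depolarization and let calcium into the cell, where it triggers transmitter release, gene expression and muscle contraction. Each is built on a pore subunit (Cacna1), with an extracellular α2δ subunit (Cacna2d) and a cytoplasmic β subunit (Cacnb) that bring it to the membrane and tune its gating. Most of the γ family (Cacng) are better known as TARPs, the auxiliary subunits of AMPA-type glutamate receptors. Voltage-gated sodium channels carry the upstroke of the action potential, and pair a pore subunit (the Scn genes ending in a) with small β subunits (the Scn genes ending in b).

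Several of these genes carry the RE1 element, the site read by the neuronal repressor REST, so its position relative to the peaks is shown first. The RE1 was searched on both strands as CAGCACC and GGACAGC separated by 2 bases. The genome held 290 such matches on chromosomes 1 to 19, X and Y, and 32 peaks (0.0321% of 99707) held one. There were 4 matches inside a channel gene or within 5 kb of it. The following mm10 sequences run 5′ to 3′ on the strand of the gene, with the RE1 in capitals and 40 bases on each side. They come from chr2:24762045-24762140 (Cacna1b), chr2:65619926-65620021 (Scn2a), chr14:29657166-29657261 (Cacna2d3) and chr17:25400597-25400692 (Cacna1h).
Cacna1b: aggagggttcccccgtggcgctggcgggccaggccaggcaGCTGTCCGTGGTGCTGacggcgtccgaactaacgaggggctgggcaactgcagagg
Scn2a: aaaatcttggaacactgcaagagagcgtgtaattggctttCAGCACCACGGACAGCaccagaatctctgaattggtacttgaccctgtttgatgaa
Cacna2d3: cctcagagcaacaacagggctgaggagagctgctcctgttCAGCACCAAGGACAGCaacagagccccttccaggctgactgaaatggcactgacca
Cacna1h: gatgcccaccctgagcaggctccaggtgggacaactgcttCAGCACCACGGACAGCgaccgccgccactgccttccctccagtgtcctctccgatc

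Of the 4, the Cacna1b element lay under a peak. Cacna1b encodes the N-type pore of presynaptic terminals, and its RE1 stood 1067 bp inside the gene, in the opposite orientation to the gene. The peak over it, chr2:24761339-24762781, reached a maximum signal of 411 and was the third tallest of all channel gene peaks. The Scn2a element stood at -805 bp relative to the gene start, and the nearest peak was 30070 bp away. The Cacna2d3 and Cacna1h elements lay deep inside their genes, 64658 and 33146 bp from the start, with the nearest peaks 21469 and 6652 bp away. Thus 1 of 615 channel gene peaks (0.163%) held this exact motif, and no match says nothing about other forms of the element.

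The sequences under the tallest peaks are shown next, because they carry the highest signal in the gene family. The tallest channel gene peak belonged to Cacng3, which encodes a TARP of cortical and hippocampal neurons, and the next to Scn4b, a sodium channel β subunit. The 200 bases centred on the region of maximum signal come from chr7:122755681-122755880 and chr9:45145638-45145837 (mm10, gene strand, both intronic). They are all in lower case because they hold none of the motifs searched.
Cacng3: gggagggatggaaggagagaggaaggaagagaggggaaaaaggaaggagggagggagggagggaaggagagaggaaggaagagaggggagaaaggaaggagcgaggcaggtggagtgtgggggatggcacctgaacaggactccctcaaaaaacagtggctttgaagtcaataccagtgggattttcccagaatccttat
Scn4b: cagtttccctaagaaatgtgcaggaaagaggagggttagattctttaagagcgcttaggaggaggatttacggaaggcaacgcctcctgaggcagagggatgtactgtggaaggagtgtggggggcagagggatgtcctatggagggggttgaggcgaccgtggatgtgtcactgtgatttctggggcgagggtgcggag

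The insulin response sequence, the reported binding element of PARIS, was searched as TATTTTT or TATTTTG on both strands of the same 200-base windows. It occurred in 70 of 615 channel gene windows, or 11.4% (Wilson 95% interval 9.11 to 14.1%), and in 9.95% of all windows. The interval covers counting error over peaks only and contains the value for all peaks. In stricter sets the gap was wider, at 13.7% (10.3 to 17.9%) against 8.76% for peaks above the median maximum signal and 11.4% (5.91 to 20.96%) against 5.90% for the top 10% by total signal. It closed to 10.02% against 10.02% for peaks of at least 200 bp. The 4 tallest peaks with a match were those of Cacnb1, Cacng3, Cacng5 and Scn3b, with maximum signals of 349, 329, 263 and 242. Examples in Cacng3 (intron 1, chr7:122706638-122706837) and upstream of Scn3b (chr9:40242087-40242286) are shown on the gene strand of mm10 with the motif, or its reverse complement, in capitals.
Cacng3: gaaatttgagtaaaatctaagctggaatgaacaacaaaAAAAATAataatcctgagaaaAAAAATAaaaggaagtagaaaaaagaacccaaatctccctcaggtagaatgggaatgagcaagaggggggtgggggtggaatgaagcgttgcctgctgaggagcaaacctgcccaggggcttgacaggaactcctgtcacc
Scn3b: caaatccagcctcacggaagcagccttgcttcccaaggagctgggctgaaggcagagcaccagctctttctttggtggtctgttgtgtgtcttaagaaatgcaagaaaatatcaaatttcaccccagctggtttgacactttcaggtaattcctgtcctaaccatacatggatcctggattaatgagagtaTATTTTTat

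The Cacng3 window held 2 copies and the Scn3b window 1. A GC box, searched as GGGCGG on both strands, occurred in 31 channel gene windows, or 5.04% (3.57 to 7.07%), and in 8.46% of all windows. For genes of 50 kb or longer the shares were 5.07% (3.53 to 7.23%) and 7.01%. Within 1 kb of an annotated transcription start site (TSS) the share was 21.2% (14 of 66, 13.1 to 32.5%) for channel gene peaks. It was 29.6% for all peaks so placed. Both of these intervals contain the value for all peaks. Among peaks whose signal varied within the peak, as defined below, the shares were 7.46% (4.88 to 11.2%) and 14.2%, and that interval does not contain it. The E-box CACGTG occurred in 23 windows, 3.74% (2.50 to 5.55%), and in 3.11% of all windows.

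Channel gene peaks were mostly intronic. Of the 615, 374 lay in introns, or 60.8% (56.9 to 64.6%), against 38.0% of all peaks. Promoters, taken as up to 3 kb from an annotated TSS, held 125, or 20.3% (17.3 to 23.7%), against 24.6%. Distal intergenic sequence held 74, or 12.0% (9.69 to 14.8%), against 31.9%, and 26 peaks lay in exons and 14 in 3′ untranslated regions. The channel genes are long, with a median of 105 kb against 17.4 kb for all protein-coding genes, so the shares were also taken over long genes. For genes of 50 kb or longer the promoter share was 19.0% for channel genes and 18.5% for all, while the intron share was still 64.3% against 54.4% and the distal share 11.2% against 22.5%. Of the intronic channel gene peaks, 24.3% (20.3 to 28.9%) lay in the first intron, against 32.7% of all intronic peaks.

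**Figure D1:**
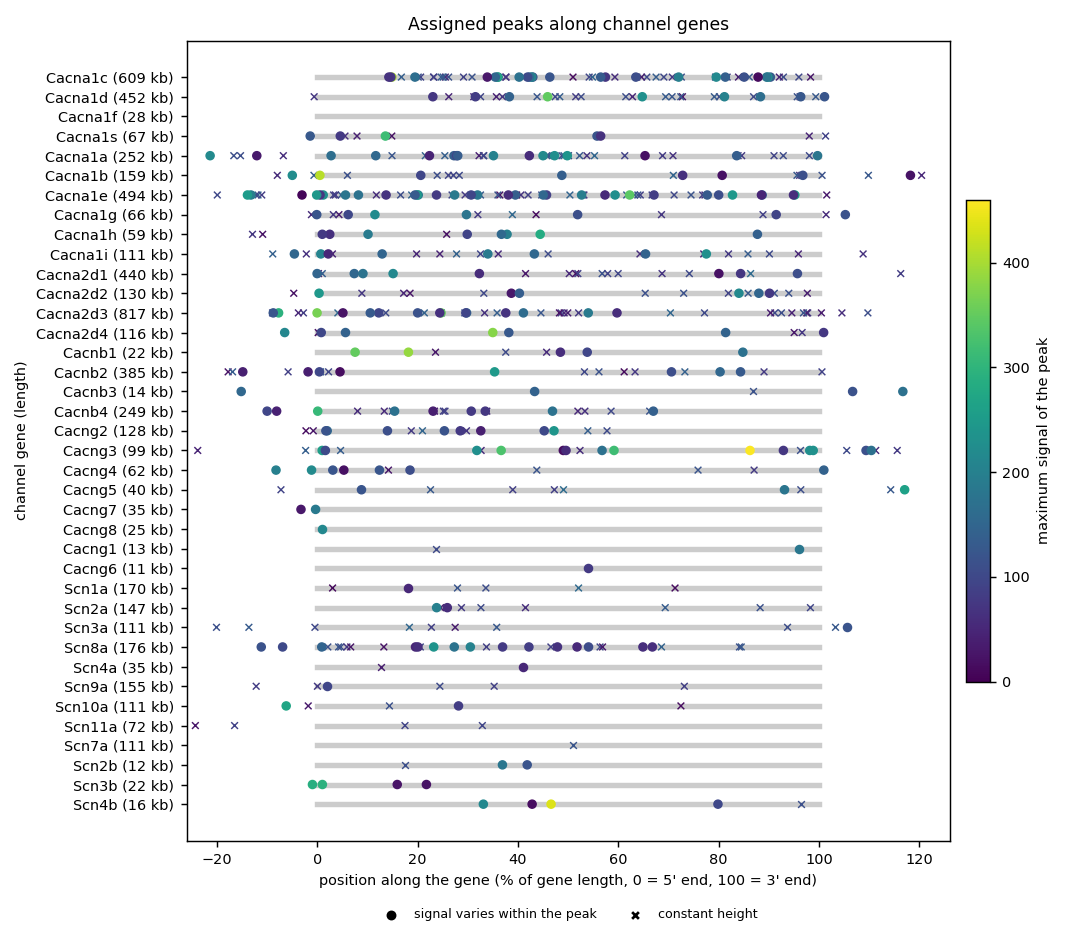
Assigned peaks of 38 channel genes by position (horizontal axis, percent of gene length from the 5′ end, with peaks beyond 25% of the gene length outside either end left out), coloured by maximum signal, with circles where the signal varies within the peak and crosses for constant height. Peaks are spread through the bodies of the long calcium channel genes, and the brightest points (Cacng3 at 458, Scn4b at 436) lie inside the gene and not at its start.

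Along the gene the peaks did not crowd at the 5′ end. Of 491 channel gene peaks placed inside their own gene (genes of 10 kb or longer, each cut into 5 equal stretches), 21.6% lay in the first stretch, 25.9% in the second, 21.2% in the third, 13.2% in the fourth and 18.1% in the last. Over all genes treated in the same way the shares were 28.8, 19.4, 18.7, 17.5 and 15.6%. The first stretch was therefore the fullest over all genes, and the second over channel genes. These shares were not taken over genes of 50 kb or longer, so the part played by gene length was not tested.

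The heights of channel gene peaks were like those of the whole list. The maximum signal had a median of 103 (95% interval of the median 100 to 108), quartiles of 69.5 and 137 and a range of 7 to 458, against a median of 101 over all peaks. Among channel gene peaks, 347 had a constant height, meaning that their total signal was at least 99% of the maximum times the width. That was 56.4% (52.5 to 60.3%) of them, against 63.3% of all peaks. The other 268 had a median maximum of 135, the same as all peaks of varying height, and the constant ones a median of 93 against 91. Counts are given below with the number of varying-height peaks beside them.

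**Figure D2:**
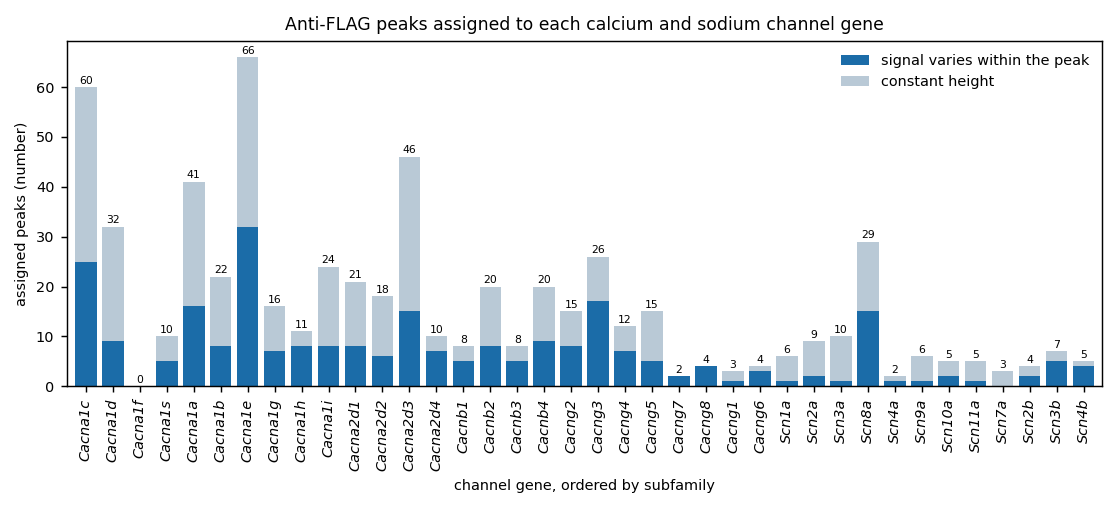
Number of peaks assigned to each of 38 of the 40 channel genes (bars, ordered by subfamily), split into peaks whose signal varies and peaks of constant height. Cacna1e (66), Cacna1c (60), Cacna2d3 (46), Cacna1a (41), Cacna1d (32) and Scn8a (29) hold the most, and Cacna1f holds 0.

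The number of peaks per gene followed gene length. Across the 40 channel genes Spearman's rho between length and peaks over the gene body was 0.786, and across all protein-coding genes it was 0.654. Genes share 1 library and are not replicates, so both are descriptions. Per 100 kb of gene body, channel genes had a median of 11.5 peaks (95% interval of the median 7.32 to 14.6), from 0.897 in Scn7a to 41.8 in Cacnb1, against 3.95 for all protein-coding genes. For genes of 50 kb or longer the medians were 9.66 and 4.41. Densities count every peak over the gene body, while the peak numbers given per gene below are those assigned to it unless said otherwise. With varying-height peaks alone the medians were 5.62 for channel genes and 0 for all genes. For genes of 50 kb or longer they were 4.02 and 1.49.

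**Figure D3:**
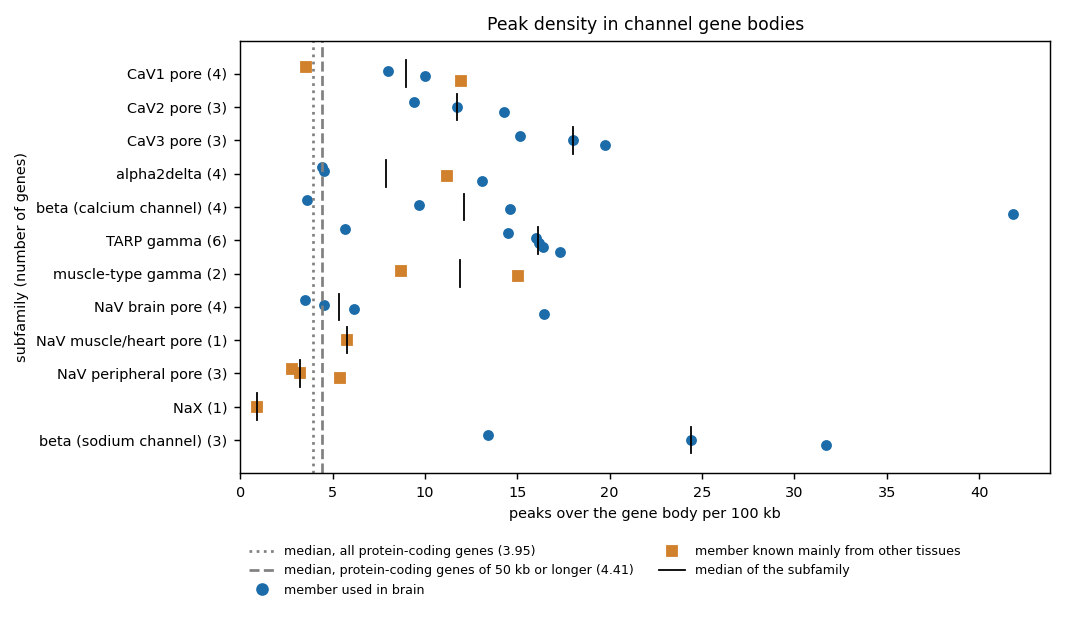
Peaks over the gene body per 100 kb (horizontal axis) for 38 channel genes by subfamily, with the median of the genes shown as a black line, brain members as circles, members known mainly from other tissues as squares, and medians over all protein-coding genes (3.95) and those of 50 kb or longer (4.41) as grey lines. Cacnb1 at 41.8 stands farthest right, and Scn7a at 0.897 farthest left.

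The L-type pores (Cacna1c, Cacna1d, Cacna1f and Cacna1s) couple calcium entry to gene expression in neurons and to contraction in muscle. They held 102 peaks, 39 of varying height, at a median density of 8.99 per 100 kb. Cacna1c, the main L-type pore of brain and heart, spans 609 kb and was assigned 60 peaks, 25 of them of varying height. Its tallest, chr6:119105354-119106504, had a maximum of 402 and lay 2083 bp from the TSS of an internal transcript, 14.9% of the way along the gene. No peak lay closer than 5214 bp to the 5′ end of the gene itself. Cacna1d, the L-type pore that opens at more negative voltages, had 32 peaks, 9 of varying height, and its tallest, with a maximum of 348, was in intron 3. Cacna1s, the voltage sensor of skeletal muscle, still had 10 peaks, with the tallest at 315 in intron 2 and one of 127 at 495 bp from the gene start. The latter overlapped the neighbouring gene Ascl5 and lay nearer to the Ascl5 start, at 377 bp.

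The P/Q-, N- and R-type pores (Cacna1a, Cacna1b and Cacna1e) admit the calcium that drives transmitter release. They held 129 peaks, 56 of varying height, more than any other subfamily, at a median density of 11.7 per 100 kb. Cacna1e, the R-type pore, had 66 peaks over and around its 494 kb, 32 of them of varying height. A peak 1628 bp wide, chr1:154883577-154885204, covered its gene start with a maximum of 244. Its tallest peak, 1515 bp wide with a maximum of 342, lay far downstream in intron 6 of 46. Cacna1a, the P/Q-type pore, had 41 peaks, 16 of varying height, and its tallest 2, at 238 and 226, were both in intron 5. The peak nearest to the Cacna1a gene start in GENCODE M21 was 6869 bp away. The authors' annotation holds a Cacna1a transcript that starts farther upstream, and a peak with a maximum of 218 lay at -3933 bp relative to that TSS. Some peaks in introns 1 and 2 of that transcript fell outside the gene body used here for peak density. Cacna1b had 22 peaks, and beside the peak over the RE1 its next tallest reached 223, in intergenic sequence at -7868 bp relative to the TSS.

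The T-type pores (Cacna1g, Cacna1h and Cacna1i) open near the resting potential and support burst firing. All 3 had a peak of varying height within 1 kb of the gene start, as did 1855 of all 5007 genes of 50 kb or longer. Their densities, 19.8, 15.1 and 18.0 per 100 kb, were all above the channel gene median. Cacna1i had 24 peaks, with a maximum of 208 near its start and 228 in intron 18. Cacna1h had 11, with the tallest at 283 in intron 2. Cacna1g had 16, with the tallest at 220 in intron 1 and one of 122 over the gene start.

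The α2δ genes all had a peak within 1 kb of the gene start, against 49.8% of all genes of 50 kb or longer. Cacna2d3 was assigned 46 peaks, 15 of varying height. Over its 817 kb body lay 36 peaks, a density of 4.41 per 100 kb, near the median of long genes. The peak over its start, chr14:29721575-29723965, was 2391 bp wide with a maximum of 365, and its total signal of 376539 ranked 95 among all peaks of the list. Cacna2d1 and Cacna2d2, which bind the drug gabapentin, had start peaks with maxima of 149 and 246, and 21 and 18 peaks in all. The retinal member Cacna2d4 had 10 peaks, and its tallest, with a maximum of 377, overlapped exon 14 of 38. The peak nearest to the Cacna2d4 start was a constant-height one with a maximum of 18, and a peak of varying height also lay within 1 kb of that start.

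Of the β subunit genes, Cacnb1 had the highest peak density of all 40 genes, with 9 peaks over 21.5 kb. Its 2 tallest, with maxima of 387 and 349, lay near internal starts and the nearer one was 1197 bp from the gene start. Cacnb4, whose loss causes ataxia and epilepsy in the lethargic mouse, had 20 peaks, 9 of varying height, with a peak of 308 over its start. A peak assigned to Cacnb4 was among the widest, at 2360 bp, but it had a low maximum of 42 and lay in an intron of the neighbouring gene Stam2. Cacnb2 had 20 peaks, the tallest, at 247, being at -92 bp relative to an internal TSS. Cacnb3 had 8, and 3 of these overlapped Ddx23.

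The TARP genes (Cacng2, Cacng3, Cacng4, Cacng5, Cacng7 and Cacng8) held 74 peaks, of which 43 had a varying height. Their share of constant-height peaks was 41.9%, against 56.4% for all channel genes. Cacng3 had 26 peaks, 17 of varying height, with maxima of 458 in intron 2, 329 in intron 1 and 257 at 78 bp from the gene start. Cacng8, a TARP enriched in the hippocampus, had 4 peaks, all of varying height. One of these, chr7:3389194-3392665, was the widest channel gene peak, at 3472 bp, covered the gene start with a maximum of 215, and ranked 23 by width among all peaks. Another, with a maximum of 205, was in the 3′ untranslated region of the neighbour Cacng7. Cacng2, the gene mutated in the stargazer mouse, had 21 peaks over its body, of which 8 were assigned to Eif3d. Its widest spanned 2047 bp in intron 1, with a maximum of 240. The γ genes known from muscle, Cacng1 and Cacng6, had 3 and 4 peaks, with highest maxima of 182 and 188.

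Among the sodium channel pores of the brain, Scn8a differed in peak number from Scn1a, Scn2a and Scn3a. Scn8a encodes the main pore of the axon initial segment and nodes of Ranvier. It had 29 peaks over its 176 kb, 13 of varying height, at 16.5 per 100 kb, with the tallest at 238, 203 and 175 in intron 2 of an annotated transcript. Scn1a, the pore of fast-spiking interneurons that is lost in Dravet syndrome, had 6 peaks, and 1 of these varied in height. Scn2a and Scn3a had 9 and 10 peaks, of which 2 and 1 varied in height. The densities of these 3 genes, 3.53 to 6.14 per 100 kb, were close to the 4.41 of long genes in general. The tallest Scn2a peak, with a maximum of 198, was in intron 1. No peak lay within 1 kb of the Scn1a or Scn2a gene start, and the Scn3a one was of constant height.

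The sodium channel genes of muscle and peripheral nerve described here had from 2 to 6 assigned peaks each. Their densities ran from 0.897 in Scn7a to 5.76 per 100 kb in Scn4a. The medians were 3.95 over all genes and 4.41 over those of 50 kb or longer. The brain pore Scn1a, with 6 peaks at 3.53 per 100 kb, fell in the same ranges. Scn4a, of skeletal muscle, had 2 with maxima of 52 and 38. Scn9a, Scn10a and Scn11a, of peripheral sensory neurons, had 6, 5 and 5, and their highest maxima were 104, 270 and 154. Scn7a, the sodium-sensing channel NaX, had 3 peaks with maxima of 122, 48 and 32, all of constant height.

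Among the small sodium channel β genes, Scn4b, Scn2b and Scn3b had 31.7, 24.4 and 13.4 peaks per 100 kb of gene body, all above the channel gene median. Scn4b, the subunit linked to resurgent current, had peaks of 436 and 214 in intron 1 and none within 1 kb of its start. Scn3b had paired peaks of 294 and 288 at its start. Scn2b had 4, the tallest at 180 in intron 1. These 3 genes are short (12.3 to 22.4 kb), so a few peaks give a high density.

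A peak overlapped the 5′ end of 11 of the 40 channel genes, against 20.4% of all protein-coding genes. For genes of 50 kb or longer the counts were 7 of 27 channel genes and 1362 of 5007 genes in all, which are close as shares. A peak lay within 1 kb of the 5′ end of 23 of the 40, against 39.3% of all genes, and for 20 of these it varied in height, against 27.8%. Among channel genes of 50 kb or longer, 18 of 27 had a peak within 1 kb, against 49.8% of all genes of that length. An assigned peak lay within 1 kb of some annotated TSS, internal starts included, in 31 of the 40 channel genes, against 42.3% of all genes. For genes of 50 kb or longer the counts were 24 of 27 and 3005 of 5007. Of the peaks themselves, 66, or 10.7% (8.52 to 13.4%), lay within 1 kb of a TSS, against 15.3% of all peaks. Over genes of 50 kb or longer that share was 9.96% (7.74 to 12.7%) against 11.1%, an interval that contains the background.

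The maxima of peaks over gene starts, for 10 of the 11, were 365 in Cacna2d3, 308 in Cacnb4, 294 in Scn3b, 246 in Cacna2d2, 244 in Cacna1e, 215 in Cacng8, 187 in Cacng7, 149 in Cacna2d1, 122 in Cacna1g and 76 in Scn9a. The Scn9a peak was the only one of these of constant height. The 17 genes with no peak within 1 kb of the start were Cacna1a, Cacna1c, Cacna1d, Cacna1f, Cacnb1, Cacnb2, Cacnb3, Cacng1, Cacng5, Scn1a, Scn2a, Scn4a, Scn7a, Scn10a, Scn11a, Scn2b and Scn4b. Both kinds of gene include pores and auxiliary subunits. The start here is the 5′ end of the gene in GENCODE M21, and for Cacna1a the authors' annotation holds a start farther upstream. Of the 17, Cacna1f, Cacnb3, Cacng1, Scn7a, Scn11a, Scn2b and Scn4b had no assigned peak within 1 kb of any annotated TSS. The rest of the 17 had at least 1 within 1 kb of another annotated TSS, and Cacna1d had 5.

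The 120 bases upstream of 4 of the covered starts, each the outermost 5′ end of the gene, differ in base composition. They run 5′ to 3′ on the gene strand of mm10, with GC boxes (GGGCGG or its reverse complement) and the E-box CACGTG in capitals. They come from chr5:15934571-15934690 (Cacna2d1), chr14:29721865-29721984 (Cacna2d3), chr9:40269097-40269216 (Scn3b) and chr2:52676832-52676951 (Cacnb4).
Cacna2d1: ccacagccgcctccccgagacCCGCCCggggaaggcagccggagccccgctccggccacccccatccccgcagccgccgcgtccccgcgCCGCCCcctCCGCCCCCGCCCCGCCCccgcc
Cacna2d3: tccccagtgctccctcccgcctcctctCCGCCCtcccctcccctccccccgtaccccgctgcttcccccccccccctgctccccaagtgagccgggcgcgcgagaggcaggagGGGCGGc
Scn3b: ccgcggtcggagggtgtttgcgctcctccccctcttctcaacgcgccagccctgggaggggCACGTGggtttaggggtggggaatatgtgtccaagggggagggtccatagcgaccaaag
Cacnb4: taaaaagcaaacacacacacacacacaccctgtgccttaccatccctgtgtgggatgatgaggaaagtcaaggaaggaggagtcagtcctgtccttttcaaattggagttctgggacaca

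The Cacna2d1 stretch held 5 GC boxes, 3 of them in 1 run of capitals, at a GC content of 86.7%. Cacna2d3 had 2 GC boxes at 78.3% GC, Scn3b an E-box and no GC box at 65.0%, and Cacnb4 neither at 47.5%. Of all 11 covered starts, 6 had a GC box in these 120 bases. In the RefSeq promoter table (250 bases before to 50 after a start, GRCm38.p6), 41 promoters of 30 channel genes were matched. A peak overlapped 12 of them, or 29.3%, against 22.9% of all 32851 promoters. Among the 12 were the Cacnb4 promoters at chr2:52676094-52676393 (78.3% GC, with a GC box) and chr2:52675810-52676109 (69.7% GC, without one). Both lie inside the gene, downstream of the Cacnb4 stretch shown above, so that stretch does not describe them. A GC box stood in 6 of the 12 and in 10 of the other 29. Over all promoters in the table it stood in 64.5% of those with a peak, 27.1% of those without, and 35.7% in all.

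Several channel genes sit in clusters. The Scn1a, Scn2a, Scn3a, Scn7a and Scn9a genes share 1328 kb of chromosome 2, which held 60 peaks, 11 of varying height. The density was 4.52 per 100 kb, against 4.17 for the chromosome. The tallest of these peaks, with a maximum of 381, was assigned to Ttc21b, and 30 of the 60 were assigned to a channel gene. Cacng1, Cacng4 and Cacng5 share 212 kb of chromosome 11 with 24 peaks, 11 of varying height, all assigned to these genes. There the density was 11.3 against 5.50, and the tallest peak, at 263, lay outside the 3′ end of Cacng5. Cacng6, Cacng7 and Cacng8 share 103 kb of chromosome 7 with 12 peaks, 9 of varying height, at 11.7 against 4.33. Of these 12 peaks, 6 were assigned to a channel gene. Both γ gene clusters thus had over 2 times the density of their chromosome, and the sodium channel cluster was close to its own.

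**Figure D4:**
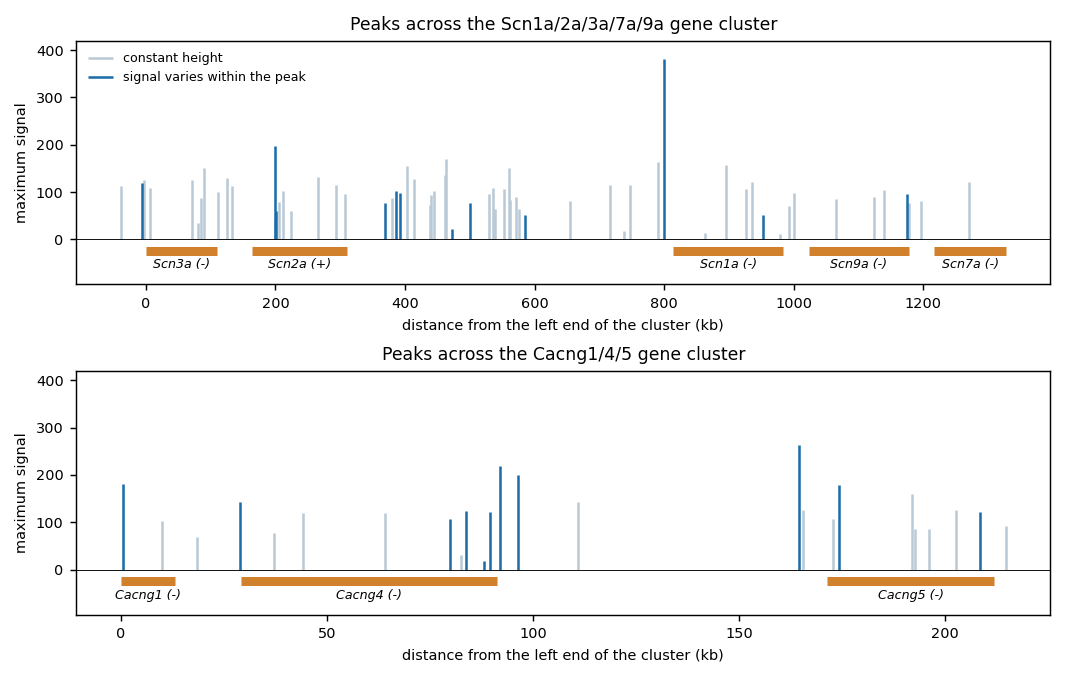
Peaks across the chromosome 2 sodium channel cluster (top) and the chromosome 11 γ gene cluster (bottom), with distance from the cluster's left end in kb on the horizontal axis, the maximum signal of each peak as a line, and genes as orange bars with their strand. The sodium channel cluster is mostly constant-height peaks (pale lines), with its tallest peak, at 381, outside the channel genes.

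Calcium channel genes as a whole (26 genes) held 514 peaks at a median density of 12.5 per 100 kb, and sodium channel genes (14) held 101 at 5.95. The 29 members used in brain held 558 peaks at 14.3 per 100 kb, and 18 had a peak within 1 kb of the start. The 11 members known mainly from retina, muscle, heart or peripheral nerve held 57 peaks at 5.76, and 5 had such a start peak. As shares these were 62.1% of brain members and 45.5% of the others, against 39.3% of all genes and 49.8% of those of 50 kb or longer, so the second was near the background. The shares of constant-height peaks were 56.5 and 56.1%. Of 6 hippocampal neuron genes, Camk2a, Neurod2, Rbfox3, Snap25 and Syt1 had a peak within 1 kb of the start, but Prox1 did not. That was 5 of 6, against 39.3% of all genes. Of genes of other tissues, Ckm had a constant-height peak there, and Alb, Apoa1, Krt5 and Myh7 had none. The lists differ in length, with medians of 65.8 and 11.1 kb, and start peaks were found in 49.8% of all genes of 50 kb or longer and 36.2% of shorter ones. Both lists were chosen with earlier results of these data known, so they do not check the tissue label. A peak is no measure of expression.

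Genes whose products bind or anchor these channels were also covered. Of a list of 24, with a median length of 162 kb, all had an assigned peak, against 72.5% of all protein-coding genes. Among all genes of 50 kb or longer, 4657 of 5007 had one. A peak lay within 1 kb of the start of 16, or 66.7%, against 39.3% of all genes and 49.8% of those of 50 kb or longer. The median density was 9.37 per 100 kb, against 4.41 for genes of that length. Ank3, which encodes the ankyrin that gathers sodium channels at the axon initial segment, had 80 peaks, 38 of varying height, and none within 1 kb of its start. Rimbp2, a scaffold between presynaptic calcium channels and the release site, had 37 peaks with a highest maximum of 512. Stac2 and Stac3, adaptors of L-type channels, reached 578 and 568, above any peak of a channel gene. Nalcn, the sodium leak channel, had 8 peaks at 2.85 per 100 kb, while its partners Unc79 and Unc80 had 16 each at 7.23 and 6.50. Fgf13 had 4 peaks at 0.593 per 100 kb, and Fgf12 and Fgf14, also cytoplasmic modulators of sodium channels, had 21 and 20.

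The assignment of a peak to a gene is the authors' choice of a TSS and moves some of these counts. Of 539 peaks over a channel gene body, 502 were assigned to a channel gene, and 113 assigned peaks lay outside every channel gene body. Beside the Cacng2 case, 6 of 24 peaks over Cacnb4 were assigned to Arl5a, 6 of 36 over Cacna1d to Dcp1a, 5 of 13 over Cacna2d4 to Lrtm2 and 3 of 4 over Cacng8 to Mir935. In all, 17 channel gene peaks overlapped another protein-coding gene.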

How the data were processed

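The authors aligned trimmed reads to mm10 (Bowtie2), dropped duplicates and reads of low quality, and then called SEACR peaks in the anti-FLAG library with IgG as control, per the labels' protocols. Tool versions and SEACR settings are not given in the sources used here. The deposited peak list gives the authors' total and maximum signal (coverage) per peak, as whole numbers whose scaling is not stated. A second deposited table assigns the region of maximum signal to a gene and an annotation class, and 15 of 99797 peaks were not in it. Depth per library is unknown. The IgG library was not analysed here by itself, and signal tracks were not used here.

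Gene starts, bodies and sequences came from GENCODE M21 on GRCm38.p6 (mm10), counted from 1. A peak lay over a body if it shared at least 1 base with it. Shares carry Wilson 95% intervals and medians order-statistic intervals, which cover counting error over peaks or genes only. No test was run. Gene lists, subfamilies and partner genes were chosen with earlier results of these data known. Genes described in detail were those with the 6 highest peak numbers, the 6 tallest and 6 widest peaks, a peak over the gene start, or a place in a cluster, except that 2 channel genes and 1 marker gene are not reported here by themselves, and other members were added for coverage of each subfamily. Python 3.11.15, pandas 2.3.3, numpy 2.4.6, scipy 1.17.1 and pysam 0.24.0 were used, and the counting and motif scripts were tested on simulated data. Alternatives covered the peak set, gene assignment, TSS distance, window and gene length.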

Additional observations from a re-analysis of the deposited data

How the results depend on the processing

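Each of 12 summary values was recomputed under 82 alternatives in all, of which 6, over genes of 50 kb or longer, were added after the data were seen. Of these values, 56 stayed within 1.5 times the reported count or inside its 95% interval, and 26 moved further. Keeping only the top 10% of peaks by total signal left 70 channel gene peaks, of 9977 peaks in all. They lay in 25 genes, 13 of them with a peak within 1 kb of a TSS. Over all protein-coding genes that set left 25.4% with an assigned peak and 14.1% with one within 1 kb of a TSS. In that set 24.3% of channel gene peaks lay within 1 kb of a TSS, against 36.0% of all peaks. Promoters held 32.9% against 45.8%, introns 51.4% against 29.2% and distal intergenic sequence 8.57% against 20.6%. In the same set 1.43% had a constant height, against 1.54% of all peaks, and the median maximum was 216.5 against 219. The median GC content was 53.5% against 55%, and the median body density 0.738 per 100 kb against 0 for all genes. Channel gene peaks above the median maximum signal numbered 315, with 42.9% of constant height against 50.9% of all peaks in that set. Their median maximum was 137 against 135, and the density 5.63 against 0. Without constant-height peaks there were 268, with 15.3% within 1 kb of a TSS against 23.2% of all such peaks. Promoters held 24.3% against 32.7%. The median maximum of 135 and the GC content of 52% were the same as for all such peaks, and the density was 5.62 against 0. Channel gene peaks of at least 200 bp had 45.3% of constant height, against 52.5% of all peaks of that width. A smaller peak set holds fewer peaks by construction, and the cause of the other shifts was not tested. A TSS distance of 500 bp gave 7.32% and one of 3 kb 20.3%, against 11.5% and 24.6% of all peaks. Total signal divided by width had a median of 83.0, against 85.0 over all peaks. With windows of 400 bp the insulin response sequence occurred in 19.3% of channel gene windows and 19.3% of all windows.

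The intron share was above that of all peaks in 8 of 8 settings and the body density above that of all genes in 9 of 9. The promoter share was below in all but 1 of 8, the exception being genes of 50 kb or longer. The median maximum was above that of all peaks in 4 of 7 settings and GC content in 5 of 7. No paired analysis was possible because there is 1 library per antibody and the labels give no shared replicate numbers. Depth per library is unknown, and 1 library gives no replicate error.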
